A study of Mus musculus with 19 samples.

Results

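The genes described here are 8 members of the FGF4-ERK signalling pathway: the ligand Fgf4, the receptors Fgfr1 and Fgfr2, the feedback inhibitors Spry2, Spry4 and Dusp6, and the ETS transcription factors Etv4 and Etv5. They were chosen by name, with earlier results of these data known, and all 8 were found among the 12778 genes of the expression matrix. RNA was measured by QuantSeq, a method that counts transcripts from their 3' ends, in 19 mouse libraries from cells grown in medium with LIF and serum. Induced pluripotent stem cells (iPSC) had been reprogrammed out of embryonic fibroblasts by Oct4, Sox2 and Klf4 and were taken after more than 18 passages. Their genotypes were wild type (WT, 3 libraries), miR-290 knockout (KO), miR-302 KO and KO of both microRNA clusters (double KO), and every KO genotype had 2 colonies of 2 libraries each. Embryonic stem cells (ESC) of the miR-290 KO and of the miR-302 KO had 2 libraries each, and no WT ESC library entered. KO colonies were independent derivations per the series text, which excepts the WT iPSC, so the 3 WT libraries may stand for 1 derivation. The p-values of comparisons with WT may then be too small, and a property of that derivation enters each of them. The test used below shares 1 estimate of the spread between all groups, so the p-values of the other comparisons may be too small as well.

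Fibroblast growth factor 4 is secreted by pluripotent cells and binds FGF receptors with the help of heparan sulfate. The receptors act through adaptor proteins, RAS, RAF and MEK to phosphorylate the kinase ERK, and in mouse pluripotent cells this signal is known for priming cells to leave self-renewal and for primitive endoderm formation. ERK activity raises the transcription of its own inhibitors, the Sprouty proteins, which act between receptor and RAF, and the phosphatase DUSP6, which removes phosphate from ERK, and of the ETS factors Etv4 and Etv5. The RNA of these targets is therefore widely used as a readout of the pathway. MicroRNAs of both deleted clusters are abundant in mouse pluripotent cells and the early epiblast and repress transcripts through the seed at bases 2 to 8 of the microRNA.

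The mature sequences are shown because the clusters share a seed. Of 12 mature 3' arms listed by RefSeq (GRCm38.p6), 5 carried the same seed, 3 from the miR-290 cluster (chr7:3218968-3218989, chr7:3220691-3220712 and chr7:3220815-3220837, plus strand) and 2 from the miR-302 cluster (chr3:127545275-127545297 and chr3:127545665-127545687, plus strand). The arms miR-302a-3p and miR-292a-3p were not matched in the table and are not among the 12. Those sharing the seed are printed 5' to 3' with the seed in capitals, in the order of these positions.
miR-291a-3p: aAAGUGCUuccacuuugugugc
miR-294-3p: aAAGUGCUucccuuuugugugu
miR-295-3p: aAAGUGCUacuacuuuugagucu
miR-302b-3p: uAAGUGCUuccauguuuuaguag
miR-302d-3p: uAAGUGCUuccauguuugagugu

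The letters complementary to that seed, AGCACTT, were searched on the transcript strand in the longest annotated 3' UTR of each of the 8 genes. Fgf4 held 1 match, 52 bases after the stop codon (chr7:144862993-144862999, plus strand). It is shown because Fgf4 was the only 1 of the 8 with a match, with the 7 matching bases in capitals.
Fgf4 site: tacccctcaggaggAGCACTTtctctcg
The other 7 held no match in this window, and over all annotated coding genes 14.7% of 21005 held at least 1. Among the 11839 of them that were also in the matrix it was 17.5%. A match is a description of letters, and no match says only that these letters are not in the window.

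Levels are given as CPM, the reads of a gene per 1000000 reads of its library, from reads recovered out of the deposited log2 values, and library totals ran from 6468285 to 25121973 reads. Over colonies the mean ± SD has n = 2, and over WT or ESC libraries n = 3 or n = 2. Genes with a limma p, adjusted by Benjamini-Hochberg, under 0.05 are termed called, over all 12778 genes in each of 11 comparisons, on 13 samples in which the 2 libraries of a colony were averaged. In the miR-302 KO iPSC, library 2 of colony 1 agreed least with its group (mean correlation across genes 0.852, against 0.904 or more in the other libraries). The double KO cells went against their label: 10 pluripotent cell markers summed to 58.2 to 114 CPM in the double KO libraries, against 2900 to 4640 CPM in the other iPSC libraries. All 10 fell in the double KO, among them Esrrb (log2 change −8.94) and Utf1 (−8.75). There 49.0% of genes were called between double KO and WT, 27.4% higher and 21.5% lower. Higher genes made 56.0% of these calls and 44.1% under median-of-ratios scaling, which shifted the median change of all genes by −0.25. The 3 comparisons with WT share the same WT libraries, and the deleted microRNAs themselves were not measured in the matrix. In bulk RNA, fewer cells with a transcript and less RNA per cell cannot be told apart.

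In the double KO against WT iPSC, 4 of the 8 genes rose (Spry4, Dusp6, Etv4 and Etv5), 1 fell (Fgf4) and 3 were not called (Fgfr1, Fgfr2 and Spry2). This is 5 of 8 beside the 49.0% of all genes. Their median log2 change was 0.67, and that of all genes was 0.16. In miR-290 KO iPSC 1 of 8 rose (Spry4), where 1.57% of all genes were called, 1.21% higher and 0.360% lower. Higher genes made 77.1% of those calls and 54.0% under median-of-ratios scaling. In miR-302 KO iPSC 0 of 8 were called, beside 4 genes (0.0313%) of all. There 4 of the 8 had an unadjusted p under 0.05 in limma, as did 15.1% of all genes, and the authors' deposited table listed 0 of the 8.

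**Figure D1:**
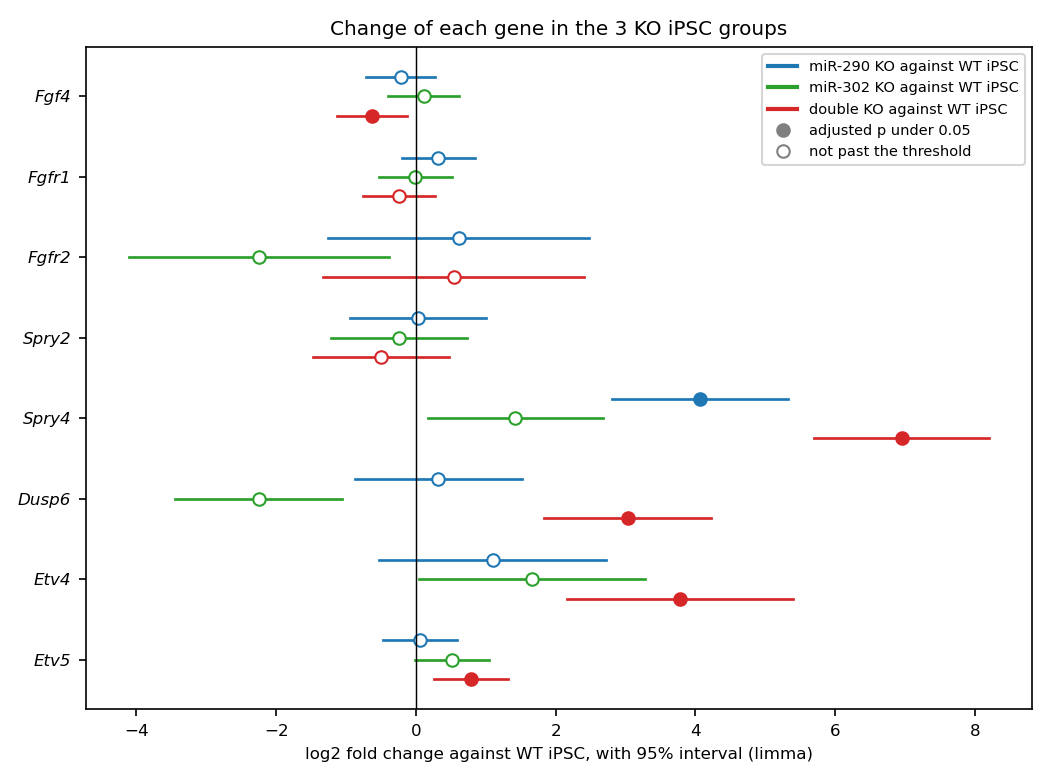
Log2 fold change of each gene in the 3 KO iPSC groups against WT iPSC, with 95% intervals from limma; filled points had an adjusted p under 0.05. Spry4 rose in both the miR-290 KO (4.07) and the double KO (6.95), while Dusp6, Etv4 and Etv5 passed the threshold in the double KO only, a difference between groups that this plot does not test.

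Fgf4, the ligand (chr7:144861386-144865245, plus strand), fell in the double KO and was not called in either single KO. Its level was 288, 240.1 and 296 CPM in the 3 WT libraries. The double KO had 123 and 159 CPM in colony 1 and 210.4 and 212 CPM in colony 2. All 4 double KO libraries lay below all 3 WT libraries, and colony 1 lay below colony 2. The group means were 275 ± 30.3 CPM in WT (SD, n = 3) and 176 ± 49.6 CPM in the double KO (SD, n = 2), that is 64.1% of WT. The log2 change was −0.63 (SE 0.23, adjusted p = 0.0391). Fgf4 is known as a target of Oct4 and Sox2 in pluripotent cells. Beside it, Pou5f1, which encodes Oct4, stood at 3.74% of its WT mean in the double KO, Sox2 at 9.22% and Nanog at 0.339%. These 3 markers were singled out after their values were seen, and their part in the Fgf4 change was not tested. The fall of Fgf4 was not called without double KO colony 1 (log2 change −0.33, adjusted p = 0.366), without WT library 1 (−0.59, adjusted p = 0.0962) or without WT library 3 (−0.57, adjusted p = 0.0994). It was also not called with iPSC groups alone (adjusted p = 0.0576) or without the trend in the spread (adjusted p = 0.0789). Of 27 alternatives 6 lost the call and 21 kept it. Among the latter is the authors' deposited table, which holds only genes that passed (log2 fold change −0.90, SE 0.21, adjusted p = 8.28e-05).

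Fgf4 values in the single KO cells overlapped those of WT. In miR-290 KO iPSC it was 334 and 254 CPM in colony 1 and 204 and 172 CPM in colony 2, a log2 change of −0.22 (95% interval −0.72 to 0.28, adjusted p = 0.678). Colony 2 lay below all WT libraries and colony 1 did not. The miR-302 KO iPSC had 328 and 296 CPM in colony 1 and 239.6 and 318 CPM in colony 2, a log2 change of 0.11 (95% interval −0.40 to 0.61, adjusted p = 0.842). The ESC had 346 and 276 CPM without miR-290 and 304 and 325 CPM without miR-302. In order of the group means, every neighbouring pair of groups overlapped in its samples, from miR-302 KO ESC (315 CPM) down to the double KO (176 CPM). Against the miR-302 KO iPSC the double KO was lower by a log2 change of −0.73 (SE 0.25, adjusted p = 0.0308). That call was lost without double KO colony 1 (−0.44, adjusted p = 0.26) or if colony 1 of the miR-302 KO was left out (−0.65, adjusted p = 0.13), with only the groups compared (adjusted p = 0.0906), with sample weights (0.077) and without the trend (0.0658).

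Fgfr1, the main FGF receptor of mouse pluripotent cells (chr8:25518759-25575718, plus strand), was called in none of the 11 comparisons with all libraries. The 3 WT libraries had 62.4, 63.2 and 64.3 CPM. Double KO libraries had 63.3 and 50.8 CPM in colony 1 and 48.7 and 46.6 CPM in colony 2, so that 3 of 4 lay below the WT range. The log2 change was −0.24 (95% interval −0.76 to 0.28, adjusted p = 0.425). It is listed as lower in the authors' deposited table of that comparison (log2 fold change −0.53, SE 0.18, adjusted p = 0.00661). The other groups had means from 68.4 to 81.4 CPM, and each overlapped its neighbours in order of the means. The lowest value, 29.6 CPM, was in the miR-302 KO iPSC library that agreed least with its group. Without that library the double KO was lower than the miR-302 KO iPSC (log2 change −0.63, adjusted p = 0.0363), and with it the change was −0.23 (adjusted p = 0.49).

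Fgfr2, the receptor associated with the primitive endoderm and trophectoderm (chr7:130162451-130266808, minus strand), was weakly expressed and varied widely in the miR-302 KO iPSC. That group had 1 and 8 reads in colony 1 (0.057 and 0.718 CPM) and 31 and 137 reads in colony 2 (1.58 and 6.72 CPM). WT libraries had 7.13, 10.3 and 2.26 CPM. Of the 4 miR-302 KO libraries, 3 lay below every library of every other group, and colony 2 library 2 lay within the WT range. The log2 change against WT was −2.24 (95% interval −4.11 to −0.38, limma unadjusted p = 0.0224, adjusted p = 0.291). With colony 1 alone, which holds the library that agreed least with its group, it was −3.77. Double KO libraries had 4.2 and 6.1 CPM in colony 1 and 12.2 and 12.3 CPM in colony 2, which overlapped WT (log2 change 0.54, 95% interval −1.33 to 2.41). Against the miR-302 KO iPSC the double KO was higher by 2.79 (SE 0.94, adjusted p = 0.0283). Leaving out miR-302 KO colony 1 (1.26, adjusted p = 0.302) ended this call, as did leaving out colony 2 of the double KO (2.16, adjusted p = 0.159), testing with only the groups compared (adjusted p = 0.108), with sample weights (0.0506) or with 5 added to the CPM (0.0665). In the remaining groups, miR-290 KO iPSC libraries lay between 4.9 and 13.2 CPM, miR-290 KO ESC at 7.72 and 17 CPM and miR-302 KO ESC at 8.66 and 4.57 CPM.

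Spry2, a Sprouty inhibitor of the step between receptor and RAF (chr14:105891947-105896819, minus strand), did not rise with Spry4. WT libraries had 61.3, 41.5 and 65.9 CPM. The double KO split by colony, with 21 and 19.3 CPM in colony 1 and 73.7 and 68.2 CPM in colony 2. Colony 1 lay below all other libraries of the study and colony 2 above all WT libraries. The log2 change against WT was −0.50 (95% interval −1.47 to 0.47, adjusted p = 0.373), and with double KO colony 1 alone it was −1.41 (adjusted p = 0.0146). Then it was also called as lower than in miR-290 KO (−1.44, adjusted p = 0.0255) and in miR-302 KO iPSC (−1.17, adjusted p = 0.0442). Group means elsewhere ran from 34.9 CPM in miR-290 KO ESC to 57.6 CPM in miR-290 KO iPSC, and all neighbouring groups overlapped. With all samples Spry2 was called in 0 of the 11 comparisons.

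**Figure D2:**
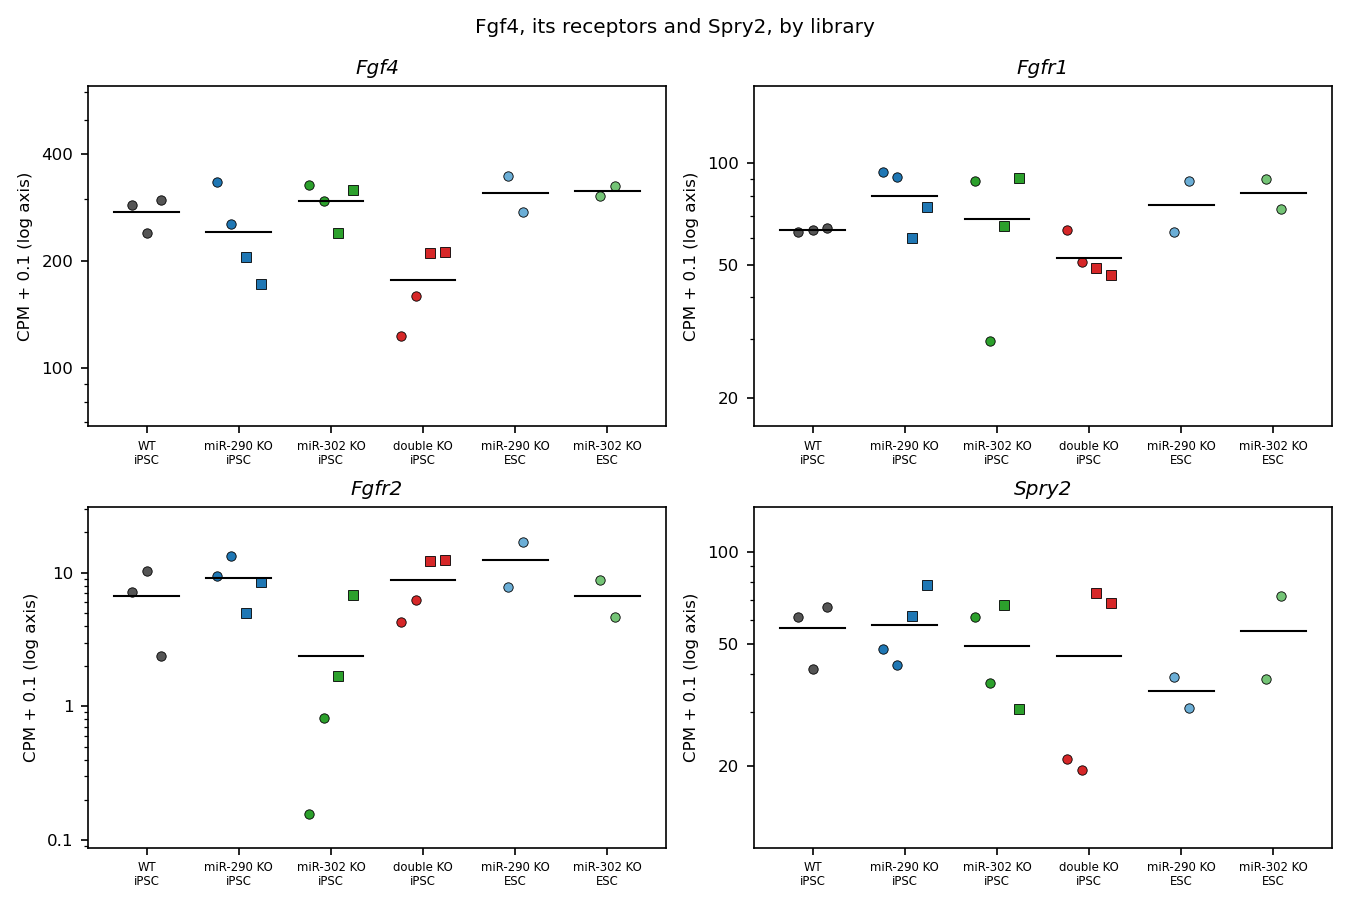
CPM plus 0.1 on a log axis for Fgf4, Fgfr1, Fgfr2 and Spry2 in each of the 19 libraries; circles are colony 1, or libraries with no colony, squares are colony 2, and bars are group means over samples. Fgf4 was lower in all 4 double KO libraries than in WT, Fgfr2 was lowest in miR-302 KO colony 1, and Spry2 separated the 2 double KO colonies.

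Spry4, the second Sprouty inhibitor (chromosome 18, 38586247 to 38601347, minus strand), had the largest fitted change of the 8 in the double KO. The WT libraries had 5, 2 and 0 reads, or 0.27, 0.106 and 0 CPM. In the double KO it had 550 and 443 reads in colony 1 (34 and 30.7 CPM) and 487 and 435 reads in colony 2 (27.3 and 25.4 CPM). All 4 double KO libraries lay above every other library of the study, the next being 6.53 CPM in miR-290 KO iPSC. The means were 0.125 ± 0.136 CPM in WT (SD, n = 3) and 29.4 ± 4.26 CPM in the double KO (SD, n = 2), a ratio of 234 that rests on 7 WT reads in all. On the log2 scale with the prior added, the change was 6.95 (SE 0.58, adjusted p = 1.17e-06). It was called in each of the 27 alternatives run, among them the authors' deposited table, which holds only genes that passed. The change ran from 2.74 to 7.51 over these alternatives.

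Spry4 also rose when miR-290 alone was lost. The miR-290 KO iPSC had 6.53 and 3.46 CPM in colony 1 and 2.15 and 4.79 CPM in colony 2, all above WT. The mean of 4.23 ± 1.08 CPM (SD, n = 2) gave 4.07 on the log2 scale (SE 0.58, adjusted p = 0.00758). With colony 2 of that group left out the change was 4.33 with an adjusted p of 0.0841, and only 2 of all genes were called in that fit. The authors' deposited table gives 4.83 on the log2 scale (SE 0.80, adjusted p = 2.91e-07). Over the alternatives the change ran from 0.83 to 4.83, and with 7 WT reads its size is poorly set. In ESC without miR-290 it was 3.54 and 2.28 CPM, next to the iPSC of that genotype, with a log2 difference of 0.45 between the 2 cell types (95% interval −0.92 to 1.82).

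The loss of miR-302 alone left Spry4 low and uneven. The miR-302 KO iPSC had 2.05 and 0.359 CPM in colony 1 and 0.713 and 0.049 CPM in colony 2, which overlapped WT at the lower end. The log2 change against WT was 1.42 (95% interval 0.17 to 2.67, unadjusted p = 0.0291, adjusted p = 0.302). ESC without miR-302 had 0.915 and 1.35 CPM. Over samples, with colonies averaged, the groups stood in order of the means as double KO, miR-290 KO iPSC, miR-290 KO ESC, miR-302 KO ESC, miR-302 KO iPSC and WT. The miR-290 KO iPSC overlapped the miR-290 KO ESC, the miR-302 KO groups overlapped each other, and the other neighbours did not overlap. Of 8 neural progenitor markers, 4 were in the matrix. Their summed level was 109 to 129 CPM in double KO and 118 to 169 CPM in miR-290 KO iPSC libraries, against 28.9 to 41.9 CPM in WT and 28.1 to 99 CPM in miR-302 KO iPSC libraries. In ESC it was 76.6 to 98.7 CPM without miR-290 and 118 to 127 CPM without miR-302, where Spry4 was low. Of these 4 markers Sox1 rose in both the double KO (4.59) and the miR-290 KO (3.23), and so did Nes (2.81 and 1.58), while Olig2 (−3.55) and Pax6 fell in the double KO. Pax6 had 43 reads in WT and 3 in the double KO, a ratio of 18.1 per total read (exact Clopper-Pearson 95% interval 5.8 to 91.2). Their part in the Spry4 result was not tested.

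Dusp6, the phosphatase that dephosphorylates ERK in the cytoplasm (chr10:99263231-99267489, plus strand), rose in the double KO although neither single KO showed a rise that passed the test. WT libraries had 9.18, 7.12 and 8.16 CPM. The double KO had 81 and 85.3 CPM in colony 1 and 54.7 and 47.9 CPM in colony 2, above every other library, the next being 18.5 CPM in miR-290 KO ESC. The mean of 67.2 ± 22.5 CPM (SD, n = 2) was 8.24 times that of WT (8.15 ± 1.03, SD, n = 3). The log2 change was 3.03 (SE 0.55, adjusted p = 0.000693), and it was called in each of the 27 alternatives.

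Without miR-302, Dusp6 lay below WT in every iPSC library but was not called. The miR-302 KO iPSC had 1.25 and 0.269 CPM in colony 1 (22 and 3 reads) and 2.75 and 5.2 CPM in colony 2 (54 and 106 reads). All 4 libraries lay below the 3 WT libraries. Their mean was 2.37 ± 2.27 CPM (SD, n = 2), or 29% of WT. The log2 change of −2.25 (SE 0.55, 95% interval −3.45 to −1.06, unadjusted p = 0.00139) did not pass adjustment (adjusted p = 0.219). With colony 1 alone it was −3.44 (adjusted p = 0.00383), in a fit that called 1273 of all genes in place of 4. In miR-302 KO ESC the level was 7.99 and 3.94 CPM.

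The miR-290 KO iPSC had 8.15 and 14 CPM of Dusp6 in colony 1 and 5.06 and 18.1 CPM in colony 2, on both sides of WT (log2 change 0.32, 95% interval −0.87 to 1.52, adjusted p = 0.811). The libraries of a colony were far apart, while the colony means were 11.1 and 11.6 CPM. In miR-290 KO ESC it was 18.5 and 13.6 CPM. Compared with each other, miR-290 KO iPSC had more Dusp6 than miR-302 KO iPSC by 2.58 (SE 0.60, adjusted p = 0.0477). This was the single call among the 8 genes in that comparison, where 2.25% of all genes were called (82.6% of these calls higher, 65.1% under median-of-ratios scaling). The Dusp6 call was lost in 16 of 26 alternatives, among them without miR-302 KO colony 1 (1.39, adjusted p = 0.291), without miR-290 KO colony 1 (2.5, adjusted p = 0.194) or colony 2 (2.65, adjusted p = 0.176), and with any 1 of WT libraries 1 to 3, miR-290 KO ESC libraries 1 and 2 or double KO colony 1 left out (adjusted p from 0.0501 to 0.0757). Spry4 in the same comparison had a log2 difference of 2.64 (SE 0.63, adjusted p = 0.0505). It was called without 1 of miR-302 KO ESC library 1 (adjusted p = 0.047) or 2 (0.0482), or of WT library 1 (0.0496) or 3 (0.047).

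**Figure D3:**
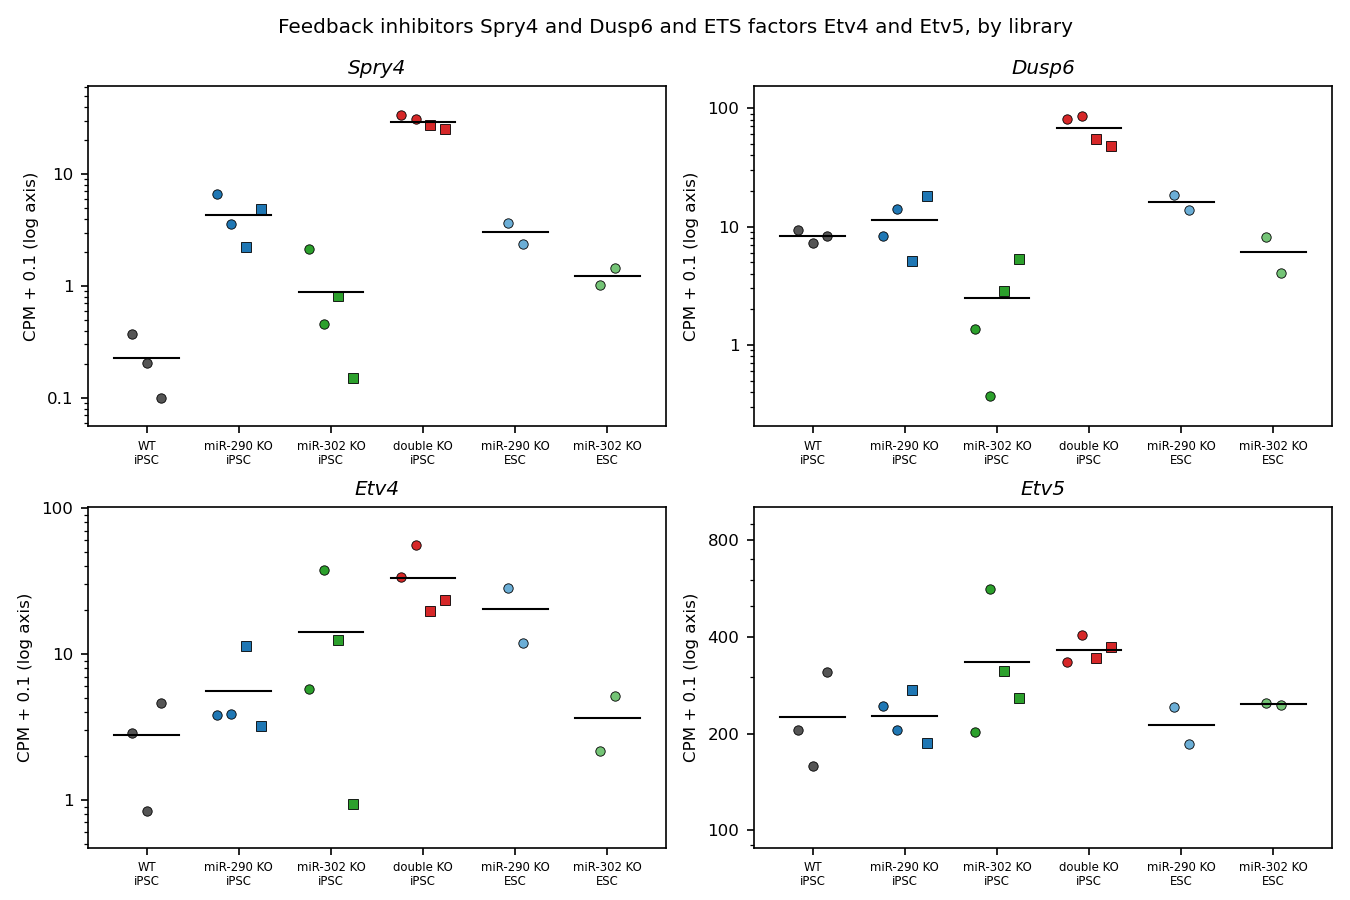
CPM plus 0.1 on a log axis for Spry4, Dusp6, Etv4 and Etv5 in each of the 19 libraries; circles are colony 1, or libraries with no colony, squares are colony 2, and bars are group means over samples. The double KO libraries stand above all others for Spry4 (25.4 CPM and more) and Dusp6 (47.9 CPM and more), while Etv4 and Etv5 overlap with the miR-302 KO iPSC.

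Etv4, an ETS factor induced by ERK (chr11:101769747-101785310, minus strand), rose in the double KO and was uneven elsewhere. WT libraries had 2.76, 0.744 and 4.53 CPM. The double KO had 33.4 and 56 CPM in colony 1 and 19.6 and 23.2 CPM in colony 2. All 4 lay above WT, with a mean of 33.1 ± 16.5 CPM (SD, n = 2) against 2.68 ± 1.89 CPM (SD, n = 3), a ratio of 12.4. The log2 change of 3.78 (SE 0.75, adjusted p = 0.00124) was called in each of the 27 alternatives.

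In miR-302 KO iPSC, Etv4 spread from 0.834 to 37.5 CPM: 5.7 and 37.5 CPM in colony 1 and 12.4 and 0.834 CPM in colony 2. The highest value came from the library that agreed least with its group, and the 2 libraries of each colony were far apart. The log2 change against WT was 1.66 (95% interval 0.04 to 3.28, adjusted p = 0.328). The miR-290 KO iPSC had 3.74 and 3.77 CPM in colony 1 and 11.3 and 3.09 CPM in colony 2 (log2 change 1.10, 95% interval −0.53 to 2.72, adjusted p = 0.499). In ESC, Etv4 had 28.4 and 11.8 CPM without miR-290 and 2.07 and 5.03 CPM without miR-302. The log2 difference between these ESC was 2.44 (95% interval 0.66 to 4.22, adjusted p = 0.231), and between the iPSC of the same genotypes −0.56 (95% interval −2.34 to 1.22, adjusted p = 0.76). The difference of that difference between the cell types was −3.0 in iPSC relative to ESC (95% interval −5.52 to −0.48, unadjusted p = 0.0231, adjusted p = 0.984). In order of the group means, every neighbouring pair overlapped in its samples.

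Etv5, the second ETS factor (chr16:22381313-22439570, minus strand), was abundant in all groups and rose in the double KO. WT libraries had 206, 158 and 311 CPM. Double KO libraries had 334 and 404 CPM in colony 1 and 344 and 373 CPM in colony 2, all above WT. The means were 364 ± 7.22 CPM (SD, n = 2) and 225 ± 78 CPM (SD, n = 3), a ratio of 1.62. The log2 change of 0.79 (SE 0.24, adjusted p = 0.0179) fell to 0.54 under median-of-ratios scaling (adjusted p = 0.0698). The call was also lost without double KO colony 1 (adjusted p = 0.0818) or colony 2 (0.0672), without WT library 1 (0.0505) or 2 (0.0659), and with only the groups compared (0.0513), and the authors' deposited table does not list Etv5.

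Etv5 was not called in either single KO. In miR-302 KO iPSC the libraries had 202 and 562 CPM in colony 1 and 312 and 258 CPM in colony 2, and the highest of them was again the library that agreed least with its group. The log2 change against WT was 0.52 (95% interval −0.01 to 1.05, adjusted p = 0.337). The miR-290 KO iPSC had 243 and 205 CPM in colony 1 and 273 and 187 CPM in colony 2 (log2 change 0.06, 95% interval −0.47 to 0.59). ESC had 242 and 185 CPM without miR-290 and 249.6 and 246 CPM without miR-302.

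The double KO was then set against each single KO, which asks what the loss of the second cluster adds. Against miR-290 KO iPSC 3 of 8 genes were called, all higher, where 32.4% of all genes were called, 15.6% higher and 16.8% lower. They were Spry4 (log2 change 2.89, SE 0.63, adjusted p = 0.00409), Dusp6 (2.70, SE 0.60, adjusted p = 0.00462) and Etv4 (2.68, SE 0.82, adjusted p = 0.0246). The Etv4 call was lost without double KO colony 1 (2.18, adjusted p = 0.152) or without miR-290 KO colony 1 (2.36, adjusted p = 0.129) or colony 2 (3.01, adjusted p = 0.0626). Etv5 had a change of 0.72 (SE 0.27, adjusted p = 0.055), and it was called without WT library 2 (adjusted p = 0.031) or 3 (0.0193), with each library as a sample (0.0329), with the colony as a random block (0.0454) and with only the groups compared (0.034).

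Against miR-302 KO iPSC 5 of 8 were called, where 46.9% of all genes were called, 28.5% higher and 18.4% lower. Higher genes made 60.8% of those calls and 47.1% under median-of-ratios scaling. Spry4 (5.53, SE 0.63, adjusted p = 2.31e-05) and Dusp6 (5.28, SE 0.60, adjusted p = 2.33e-05) rose, and Fgfr2 rose and Fgf4 fell as given above. Etv4 was higher by 2.12 (SE 0.82) at an adjusted p of 0.0497, and this call was lost in 16 of 26 alternatives, with an adjusted p up to 0.356 (log2 change 1.07) when miR-302 KO colony 2 was left out and 0.235 (1.61) when double KO colony 1 was. It was also lost, with an adjusted p from 0.0504 to 0.0631, without double KO colony 2, either miR-290 KO colony, WT library 1, either miR-290 KO ESC library or miR-302 KO ESC library 2. Both comparisons use the same double KO samples.

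Whether the 2 losses added up was tested as the double KO change less the sum of the single KO changes, on the log2 scale. For Dusp6 the single changes summed to −1.93 and the double KO change was 3.03, a difference of 4.96 (SE 0.82, 95% interval 3.18 to 6.73, adjusted p = 0.00111). Dusp6 was the 1 gene of the 8 called in this test, which called 23.6% of all genes. Under the 26 alternatives run the difference lay between 3.06 and 6.14 and was called each time. Put in terms of miR-302, its loss went with less Dusp6 where miR-290 was present (−2.25 against WT, not called). Where miR-290 was absent, it went with more (2.70 against miR-290 KO). The double KO libraries also had the low pluripotent marker sums given above, and their part in this difference was not tested.

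The other 7 genes were not called in this test. For Spry4 the single changes summed to 5.49 and the difference was 1.46 (95% interval −0.39 to 3.32, adjusted p = 0.234). With 1 or 5 added to the CPM before the log2 step, which weighs low values less, the difference was called (adjusted p = 0.00949 and 0.000135). For Fgfr2 the difference was 2.18 (95% interval −0.59 to 4.95), and it was called without miR-302 KO colony 2 (3.71, adjusted p = 0.0312). Fgfr1 was called without the library that agreed least with its group (−0.95, adjusted p = 0.0415, against −0.56 and 0.277 with it). Etv4 (1.02), Etv5 (0.20), Spry2 (−0.30) and Fgf4 (−0.52) were not called in any alternative.

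**Figure D4:**
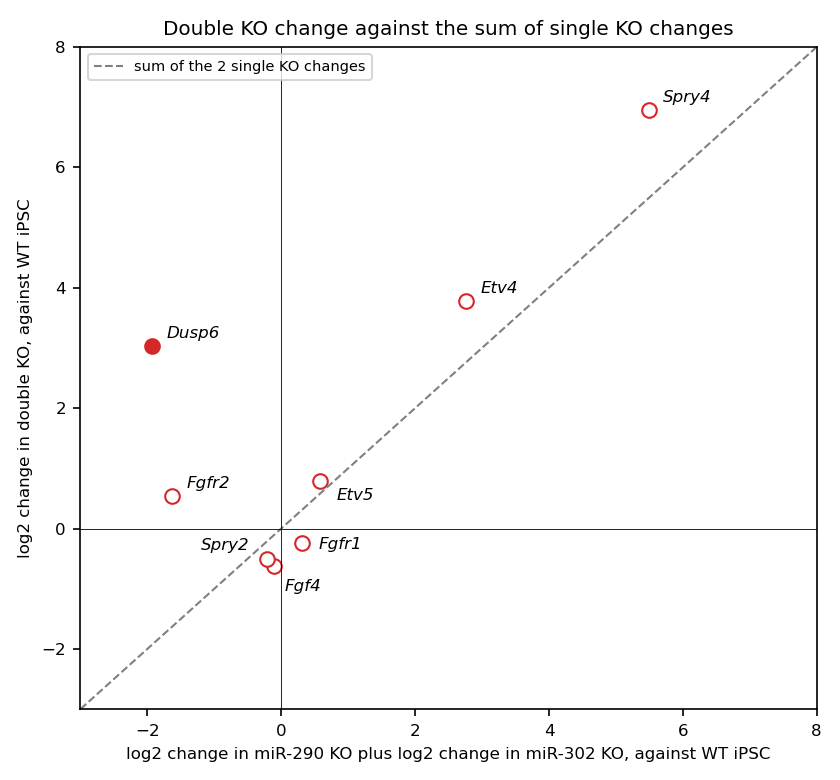
Log2 change in the double KO (vertical) against the sum of the log2 changes in the 2 single KO groups (horizontal), all against WT iPSC, for the 8 genes; the dashed line marks equal values and the filled point had an adjusted p under 0.05 for the difference. Dusp6 lies far above the line (−1.93 across, 3.03 up), and Spry4 lies above it by 1.46.

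The iPSC and ESC of the same single KO were compared to set cells of 1 genotype made in 2 ways side by side. None of the 8 genes was called in miR-290 KO iPSC against ESC (0% of all genes were called) or in miR-302 KO iPSC against ESC (0% of all genes). In limma 1 and 2 of the 8 had an unadjusted p under 0.05, as did 3.85% and 10.5% of all genes. They were Etv4 (−1.92, 95% interval −3.70 to −0.14) for miR-290 and Fgfr2 (−2.44, 95% interval −4.49 to −0.39) and Dusp6 (−1.75, 95% interval −3.06 to −0.43) for miR-302. Without miR-302 KO colony 2, the difference was −3.97 for Fgfr2 and −2.93 for Dusp6. These values rest on colony 1, which holds the library that agreed least with its group. Between the 2 ESC genotypes 0 of 8 were called, beside 0.587% of all genes, and 2 had an unadjusted p under 0.05: Etv4 as above and Dusp6 (1.46, 95% interval 0.15 to 2.77, adjusted p = 0.331). The interaction of genotype and cell type also called 0 of 8, beside 0% of all genes, with 1 of 8 (Etv4) and 4.32% of all genes at an unadjusted p under 0.05.

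The remaining genes of the pathway were taken from 6 lists of 102 genes, 85 of which were in the matrix. These lists were also chosen with earlier results of these data known. In the double KO against WT 38 of the 85 rose (44.7%), 13 fell (15.3%) and 34 were not called, with a median log2 change of 0.70. Of all genes 27.4% were called higher and 21.5% lower there, and the counts of each list below are to be read beside these shares. In miR-290 KO iPSC 2 of the 85 rose and 0 fell, beside 1.21% and 0.360% of all genes, and in miR-302 KO iPSC 0 were called. With alternatives, the risen genes of the double KO numbered 29 to 42 and the fallen 10 to 14. Those called without miR-290 numbered 0 to 5, with 0 without miR-290 KO colony 2, WT library 1 or WT library 2, and 1 without miR-290 KO colony 1, WT library 3, either colony of the double KO or either ESC library of the miR-290 KO. The 0 in the miR-302 KO did not hold without miR-302 KO colony 2, where calls over all genes rose as well. That fit rests on colony 1, which holds the library that agreed least with its group. The same double KO libraries had the pluripotent marker sums given above, and their part in these counts was not tested.

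Among other FGF ligands and receptors, most of those measured fell. Of 14 listed, 6 were in the matrix, of which 2 rose and 4 fell in the double KO (median −3.10, or −3.93 taking genes without a double KO read at their bound). Fgf1 rose by 4.81 (SE 1.06, adjusted p = 0.00259) and Fgfrl1, a receptor without a kinase domain, by 2.12 (SE 0.45, adjusted p = 0.00198). Fgf1 had 24 reads in WT, and 8.71 and 30.1 CPM in the double KO colonies. Fgf10 had 154 reads in WT and 0 in the double KO, at least 67-fold lower by a floor of 3 reads over the group. Fgf17 had 252 reads in WT and 2 in the double KO, a ratio of 159 per total read (exact Clopper-Pearson 95% interval 43.6 to 1320.0, counting error only). No gene of the list was called in either single KO.

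Genes of heparan sulfate, the sugar chain that FGFs need to bind their receptors, mostly rose. The list pools enzymes and carriers of unlike roles, and what their changes mean for FGF binding was not tested. Of 17 in the matrix 11 rose, 1 fell and 5 were not called in the double KO (median 1.86, against 0.16 for all genes), beside 27.4% of all genes higher and 21.5% lower. Among them the core protein genes Gpc6 (5.21, SE 0.79, adjusted p = 0.000174) and Gpc4 (4.25, SE 0.43, adjusted p = 6.95e-06) changed most. Gpc4 went from 15.5 ± 3.09 CPM in WT to 288 ± 45.1 CPM. The sulfotransferase Hs6st1 fell (−0.85, adjusted p = 0.0457), and that call was lost when any 1 WT library, double KO colony, miR-290 KO colony or miR-290 KO ESC library was left out. The list had 0 calls in the single KO groups, with medians of 0.57 without miR-290 and −0.31 without miR-302.

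Adaptors and the kinase cascade held genes that rose and genes that fell, beside 27.4% of all genes higher and 21.5% lower. Of 9 adaptors 3 rose, with the exchange factor Sos2 (2.45, SE 0.27, adjusted p = 1.19e-05) and Crk (0.93, adjusted p = 0.00526) the largest, and Gab1 fell (−1.64, adjusted p = 0.00338), with a median of 0.51. Of 16 cascade genes 8 rose and 4 fell (median 0.60). The kinase Braf rose by 1.65 (SE 0.34, adjusted p = 0.00172). Rps6ka1, a kinase downstream of ERK, fell by 2.88 on the log2 scale (adjusted p = 4.33e-06), and the scaffold Ksr1 had 44 reads in WT and 0 in the double KO, at least 19.3-fold lower. The cascade genes that rose in the double KO numbered 2 without its colony 2, 5 without its colony 1 or without WT library 1, and 4 under median-of-ratios scaling.

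Among 18 other negative regulators of RAS and ERK 5 rose, 2 fell and 11 were not called in the double KO (median 0.49). The share that rose was near the 27.4% of all genes, and the share that fell was below the 21.5% of all genes. Dusp4, a nuclear ERK phosphatase, rose by 3.63 (SE 0.76, adjusted p = 0.00175). Pea15a, which holds ERK in the cytoplasm, rose by 3.18 (SE 0.57, adjusted p = 0.000648). Dusp4 had 30 reads in WT. The double KO colonies were apart, with 4.61 and 13.4 CPM of Dusp4 and 40.9 and 205 CPM of Pea15a. Dusp9, an ERK phosphatase of pluripotent cells, fell the most: 80 ± 4.4 CPM in WT and 1.22 ± 0.0747 CPM in the double KO (log2 change −5.91, SE 0.32, adjusted p = 2.21e-08). Il17rd, a membrane inhibitor of FGF receptors, fell by 0.95 on the log2 scale (adjusted p = 0.00596), and without double KO colony 1 only 1 gene of the list was called as lower. Dusp6 and Dusp4 were thus higher and Dusp9 lower. No gene of this list was called in a single KO.

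Of 19 ERK-dependent transcription factors and immediate early genes 9 rose, 1 fell and 9 were not called in the double KO (median 0.75), beside 27.4% of all genes higher and 21.5% lower. Fos rose by 4.48 (SE 0.46, adjusted p = 7.88e-06) and Phlda1 by 3.98 (SE 0.39, adjusted p = 4.65e-06), while Ier2 fell by 1.4 (SE 0.22, adjusted p = 0.000204). The Fos change rests on 19 WT reads. Klf6 was the 1 gene called without miR-290 (1.77, SE 0.34, adjusted p = 0.0281), with 24.6 ± 7.56 CPM in WT and 81.9 ± 4.07 CPM in the miR-290 KO, and was not called without either miR-290 KO colony or without WT library 1 or 2. In the double KO it had 37.9 ± 9.81 CPM. None was called without miR-302.

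**Figure D5:**
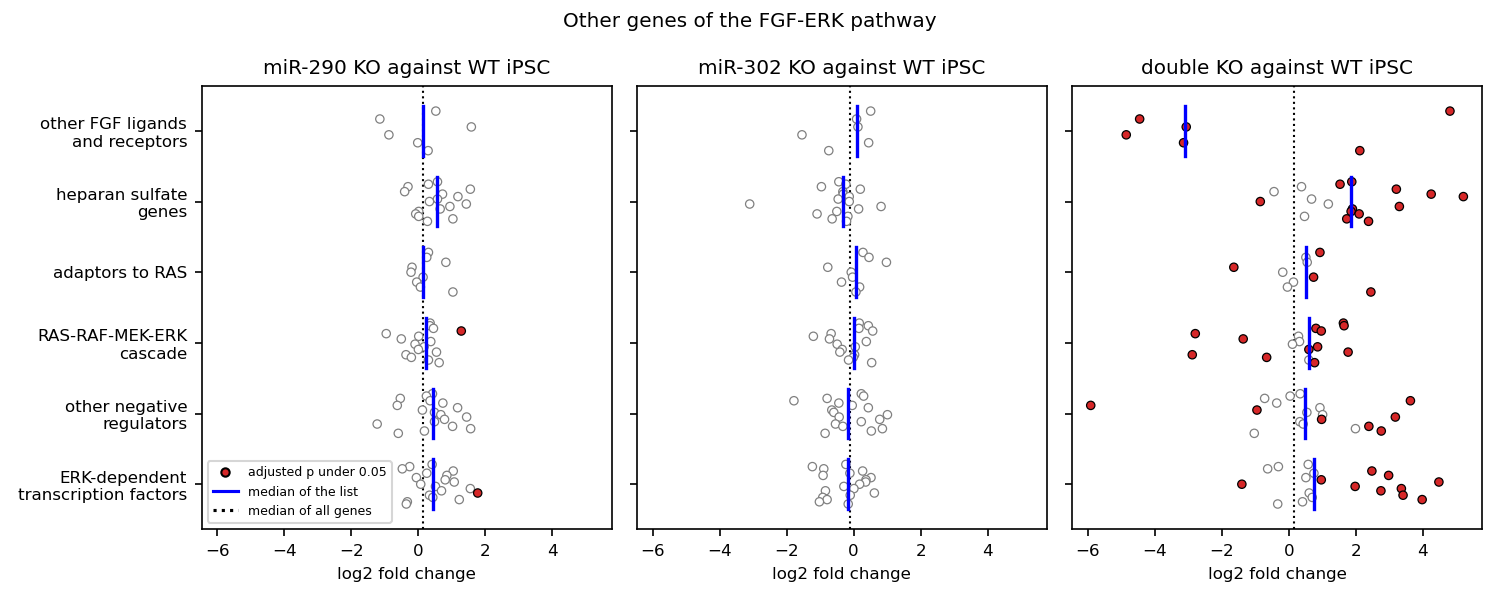
Log2 fold change of the 85 other pathway genes in 6 lists, for the 3 KO iPSC groups against WT iPSC; filled points had an adjusted p under 0.05, blue bars are list medians and dotted lines the median of all genes. Calls in the double KO lie on both sides, with 38 higher and 13 lower, and the single KO groups show 2 and 0 calls.

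Markers of the cell types these cultures could hold were read in the same libraries. Of 11 primitive endoderm markers, the fate that FGF4 favours in the embryo, 6 were in the matrix. Their sum was 984 to 1200.0 CPM in double KO and 89.4 to 115 CPM in WT libraries. Of the 6, Col4a2 (5.54) and Col4a1 (4.86), basement membrane collagens, rose in the double KO and also without miR-290 (2.48 and 1.99). Dab2 fell (−2.34), and the defining factor Gata4 had 63 reads in WT and 0 in the double KO, at least 26.9-fold lower. Only 1 of the 6 was called as lower without double KO colony 2 or without WT library 2 or 3, and 0 with 5 added to the CPM. The sum of 9 trophectoderm markers was 15.1 to 67.6 CPM in the double KO against 143 to 553 CPM in WT, and 6 of the 9 fell, with Krt18 (−6.91) and Krt8 (−6.20) falling most. Without miR-290 the trophectoderm factor Gata3 rose (2.35, adjusted p = 0.00689), while in the double KO it fell (−1.50, adjusted p = 0.00235). Of 14 embryonic fibroblast markers 6 were in the matrix, and Col1a2, Col3a1, Dcn and Postn were among those absent. The sum of the 6 was 9.4 to 51.5 CPM in the double KO and 15.4 to 17.8 CPM in WT. In the double KO 1 of the 6 rose (Fbln2, 4.20) and 3 fell, Thy1 (−3.86) and Pdgfrb (−2.72) most. Without double KO colony 1, 0 fibroblast markers were called as higher and 0 neural markers as lower, and without its colony 2 only 1 fibroblast marker was called as lower. Neither collagen was called in the miR-290 KO when either of its colonies was left out. The part of these markers in the results was not tested.

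Genes with the most similar pattern were ranked by the root mean square difference of log2 values over the 13 samples, after centring each gene, among 9676 genes with a mean of at least 5 CPM. Closest to Fgf4 were Ccdc86 (0.14), Uspl1 (0.15) and Polr3a (0.15), with the root mean square deviation of Fgf4 itself at 0.34. The 3 nearest to Spry4 were R3hdml (0.81), Id1 (0.85) and Irf2 (0.86), against 2.31 for Spry4 itself. Id1 went from 26.4 ± 10.8 CPM in WT to 188 ± 90.7 CPM without miR-290 and 639 ± 279 CPM in the double KO. Irf2 went from 0.307 ± 0.295 to 4.08 ± 1.24 and 24.7 ± 9.55 CPM in the same groups. Closest to Etv5 were Gpatch8 (0.16), Gpaa1 (0.18) and Dnajc4 (0.19), against 0.37 for Etv5 itself. Over the 19 libraries 2 of these 3 genes stayed among the nearest for Fgf4, 2 for Spry4 and 1 for Etv5.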

How the data were processed

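The authors' deposited matrix holds log2 values for 12778 genes in 19 libraries. The submitters' processing notes name Trim Galore 0.66, STAR, Salmon 1.4.0, limma and DESeq2 1.34.0 and build mm10, without roles. The values were log2 CPM with a prior of 0.91 to 3.52 reads and a constant per gene. Whole reads, within 0.02, were recovered for 12268 genes (96.0%), where 99.6% of values came out whole, and a count test on them was not run. Per the file headers, the authors' 3 deposited comparison tables hold a mean normalised signal, log2 fold changes with their test score, and raw and adjusted p-values (the latter at most 0.05). In the matrix, 6 further columns of values were not used.

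Limma 3.58.1 (R 4.3.3) was fitted to the deposited log2 values of 13 samples (libraries of a colony averaged) in 6 groups, with 7 residual degrees of freedom and a trended spread, and was tested on simulated data. The members and gene lists were chosen with earlier results of these data known. Named genes were the 8 members, in each pathway list the called genes with the largest changes in the double KO (at most 2 each way) and those called in a single KO (at most 3), and the 3 genes nearest to Fgf4, Spry4 and Etv5. WT and ESC libraries have no stated separate cultures, so their spread may be technical, and it enters the estimate of the spread that all comparisons share. Reads carry no molecular identifiers here, so intervals made from them cover counting error only. Alternatives were scaling, added constants, filters, spread models, samples and each sample left out. There, a lone remaining sample was assumed to vary like the other groups. Leaving out 1 deviating library was added after seeing the data. The authors' deposited tables were a further alternative only for genes they list, so they could not count as losing a call. Marker genes were named by the rule for the pathway lists, and 3 pluripotency genes were added after their values were seen. Some genes that this rule names are not reported here.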

Additional observations from a re-analysis of the deposited data

Results flagged for a closer look

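The Dusp6 change that went with losing miR-302 differed with the state of miR-290. It was −2.25 on the log2 scale where miR-290 was present, which was not called (limma, adjusted p = 0.219). It was 2.70 where miR-290 was absent, a difference of 4.96 (limma, adjusted p = 0.00111). The double KO libraries also had the low pluripotent marker sums given above, and their part in this difference was not tested. All 4 miR-302 KO libraries lay below all 3 WT libraries, and all 4 double KO libraries lay above all 4 miR-290 KO libraries. Without colony 1 of the miR-302 KO iPSC the difference was 3.77 (adjusted p = 0.00126), and it was called in all 26 alternatives run.

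In miR-290 KO iPSC, 1 library had far more Etv4 than the other 3, with 11.3 CPM in colony 2 library 1 against 3.09 to 3.77 CPM. Its gap was 0.917 of the range of the group, above Dixon's 95% critical value for 4 values. The 4 libraries come from 2 colonies, and the other library of the same colony had the lowest value. This was 1 of 24 sets of 4 libraries checked, and chance alone marks about 1 in 20.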

How the results depend on the processing

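Across 2262 sets of a gene, a comparison and an alternative, 2173 kept their side of the threshold, 58 lost a call, 31 gained one and 0 reversed. Most of the 2173 were not called to begin with, and only a called result can lose its call. With all samples kept, the count of called genes moved by over 1.5 times in 3 comparisons. For miR-290 KO against miR-302 KO iPSC (1 of 8), it was 3 with each library as a sample or the colony as a random block, 2 with 1 added to the CPM or a mean of at least 1 CPM, and 0 under median-of-ratios scaling, with 5 added to the CPM, with iPSC groups only, with only the groups compared and with sample weights. Between double KO and miR-302 KO iPSC (5 of 8) it was 2 with only the groups compared or with sample weights and 3 without the trend. For the test of additivity (1 of 8) it was 2 with 1 or 5 added to the CPM and without library 2 of miR-302 KO colony 1. With 1 sample left out, the counts ran from 3 to 5 (double KO against WT), 0 to 1 (miR-290 KO against WT), 0 to 2 (miR-302 KO against WT), 2 to 4 and 3 to 5 (double KO against miR-290 KO and miR-302 KO), 0 to 2 (single KO against each other), 1 to 2 (additivity) and 0 to 2 (miR-302 KO iPSC against ESC).

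The genes called over all 12778 numbered 6255 in the double KO against WT (4495 to 6904 over the alternatives), 201 for miR-290 KO (2 to 427), 4 for miR-302 KO (2 to 1273), 287 between the single KO iPSC (6 to 1279), 75 between the ESC (0 to 357) and 0 for miR-302 KO iPSC against ESC (0 to 955).

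Between pairs of KO groups, the deviations of samples with the same colony or replicate number had correlations of −0.27 to 0.11. WT did not enter this check, and the numbers of the libraries within a colony were not compared. Whether samples or libraries with the same number shared a batch was not tested further. With a replicate block, 4 of 8 genes passed in double KO against WT iPSC (Fgf4 did not, adjusted p = 0.117) and 0 between the single KO iPSC, Etv5 was gained in double KO against miR-290 KO (4 of 8), and over all genes 5438 and 55 in the double KO and miR-290 KO against WT. Spry4 in WT rested on 7 reads, so the size of its fold is poorly set.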
